A study of Homo sapiens with 2 samples.

Results

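The genes described here encode proteins of the azurophil granule, together with close relatives and neighbours of those genes. MS4A3, which encodes a membrane protein of granulocyte and monocyte progenitors, was listed with them. The azurophil granule is the primary granule that the neutrophil lineage fills at the promyelocyte stage. The 10 genes AZU1, PRTN3, ELANE, CFD, CTSG, GZMH, GZMB, MPO, EPX and MS4A3 were taken out of 20163 annotated protein-coding genes, and all 10 were found. They were listed because granule genes had stood out in an earlier look at the same comparison, so the differences between the lines are given as a description. Counts of single CpG dinucleotides called by an exact test between the libraries are given beside the share of the whole genome, and no support is drawn from them. For each gene the CpG dinucleotides within 2 kb of the transcription start site (TSS), in the gene body and in 20 kb on either side were read in both lines. These windows held 6355 of the 28217448 CpG dinucleotides listed for the genome, 934 of them within 2 kb of a TSS.

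Whole-genome bisulfite sequencing (WGBS) was carried out on genomic DNA of 2 established acute myeloid leukemia (AML) cell lines. The study states that they were cultured as their supplier specifies. OCI-AML3 is mutant for DNMT3A, an enzyme that adds methyl groups to unmethylated CpG dinucleotides, and carries R882C on 1 of its alleles. OCI-AML5, which the study calls AML5, is wild type for DNMT3A. Each line was sequenced as 1 library, so the effect of the mutation cannot be told apart from any other difference between the lines or between the cultures. Bisulfite turns unmethylated cytosine into uracil, which is read as thymine, and the methylation level of a CpG is the percentage of its calls that were still cytosine.

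Azurophil granules store serine proteases, which cut proteins at a catalytic serine, along with myeloperoxidase and antimicrobial proteins. Their genes are among the most strongly expressed of the promyelocyte and are shut down as neutrophils mature. Several lie side by side in clusters of related genes, and GZMH and GZMB, which encode granzymes of cytotoxic lymphocytes, share a cluster with cathepsin G.

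The deposited counts summed to 902802339 calls in OCI-AML3 and 894828667 in OCI-AML5, with a median of 27 and 30 calls per nuclear CpG. At those medians a CpG without a methylated call could still have a level of up to 11.1% in OCI-AML3 and 10.0% in OCI-AML5. Averaged over CpG dinucleotides covered by more than 5 reads, OCI-AML3 stood at 67.6% and OCI-AML5 at 75.2%. Promoters of myeloid, T-cell and B-cell marker genes were read to check the labelled lineage. SPI1, which encodes the myeloid factor PU.1, was at 11.5% in both lines. In OCI-AML3 and OCI-AML5, CD33 was at 36.5% and 32.3%, CSF3R at 40.6% and 41.1%, LYZ at 75.5% and 71.2% and CSF1R at 78.9% and 91.0%. The 3 T-cell and 3 B-cell promoters were between 67.6% and 92.1% in both lines. LYZ and CSF1R lay within that range, so these levels did not separate the marker groups. Each marker window was around the most upstream annotated TSS, and other starts of the markers were not read. None of the 5 myeloid promoters differed between the lines by more than 20 percentage points.

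The sequences just upstream of 4 members are shown because large differences lay in or beside them. They run 5′ to 3′ on the strand of the gene, with CpG dinucleotides in capitals. They are from the RefSeq promoter table, whose build is GRCh38.p14, and each matched GRCh37 at exactly 1 place, which gives the coordinates. For MS4A3 the part that overlaps an annotated exon was left out.
AZU1 (chr19:827587-827836, plus strand): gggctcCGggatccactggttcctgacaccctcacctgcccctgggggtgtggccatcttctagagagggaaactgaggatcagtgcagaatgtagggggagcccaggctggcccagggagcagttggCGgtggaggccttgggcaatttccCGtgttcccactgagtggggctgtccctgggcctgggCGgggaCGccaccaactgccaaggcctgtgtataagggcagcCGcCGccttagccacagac
PRTN3 (chr19:840749-840998, plus strand): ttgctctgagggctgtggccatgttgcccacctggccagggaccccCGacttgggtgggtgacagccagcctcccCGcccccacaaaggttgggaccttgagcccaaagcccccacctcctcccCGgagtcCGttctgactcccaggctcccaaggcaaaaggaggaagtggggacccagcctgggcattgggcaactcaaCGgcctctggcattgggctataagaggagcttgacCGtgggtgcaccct
CTSG (chr14:25045457-25045706, minus strand): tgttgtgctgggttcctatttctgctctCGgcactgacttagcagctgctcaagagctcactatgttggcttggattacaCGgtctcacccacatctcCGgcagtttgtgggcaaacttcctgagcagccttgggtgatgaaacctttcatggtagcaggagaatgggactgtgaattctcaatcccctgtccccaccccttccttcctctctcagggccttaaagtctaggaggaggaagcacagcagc
MS4A3 (chr11:59823888-59824059, plus strand): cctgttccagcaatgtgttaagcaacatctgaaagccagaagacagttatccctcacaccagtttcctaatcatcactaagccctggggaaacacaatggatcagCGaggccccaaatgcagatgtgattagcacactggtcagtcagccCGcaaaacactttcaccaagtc

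The 250 bases before AZU1 held 7 CpG dinucleotides, which averaged 0.14% in OCI-AML3 and 53.95% in OCI-AML5, and the 6 before PRTN3 were at 2.39% and 42.5%. The CTSG sequence differed from both. Its 3 CpG dinucleotides had no methylated call in either line, out of 71 calls in OCI-AML3 and 73 in OCI-AML5. A CpG read as unmethylated in every call cannot be told apart from one where the line carries T in place of C. The 2 CpG dinucleotides of the MS4A3 sequence were at 0% and 11.8%. Motifs were searched on both strands by their letters alone, in the full 250 bases before each start. Of these the MS4A3 sequence shows 172, and the MS4A3 matches to TTNNGNAA at -68 and to AACNG at -29 lie in the part left out. The ETS-type motif GAGGAA occurred in the sequences of PRTN3 and CTSG and in 23.6% of 35116 RefSeq promoters of the same length, and the C/EBP motif TTNNGNAA occurred in those of AZU1, PRTN3 and MS4A3 and in 33.2% of all. AACNG, the MYB motif, was in all 4 and in 70.6% of promoters. TATAAA and TGTGGT, found in 10.7% and 10.98% of promoters, were in none of the 4, and no match in AZU1, PRTN3 or CTSG overlapped another, while in MS4A3 a match to AACNG overlapped one to TTNNGNAA.

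Within 2 kb of the TSS, 6 of the 10 genes were lower in OCI-AML3 by more than 20 percentage points, and the percentage of all 19930 promoters past that threshold was 8.94. The 6 were CTSG, AZU1, ELANE, MS4A3, PRTN3 and CFD. EPX was lower by slightly less, and GZMH, GZMB and MPO were slightly higher in OCI-AML3. The median difference was -30.2 points over the 10 genes and -4.71 over all promoters. The starting levels were unlike. In OCI-AML5 the median was 82.3% over the 10 genes and 37.6% over all promoters, with 9 of 10 and 5707 of 19930 above 66%. A promoter below 20% in OCI-AML5 cannot be lower by more than 20 points. AZU1, ELANE, PRTN3 and CFD also lie in the same region of chromosome 19, which was at 54.5% in OCI-AML3 and 79.4% in OCI-AML5. A lower level of any size was found in 7 of the 10, against 84.6% of all promoters. No member was higher by more than 20 points, where the percentage of all promoters was 1.82. The plot of promoter levels by gene shows these pairs of values.

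**Figure D1:**
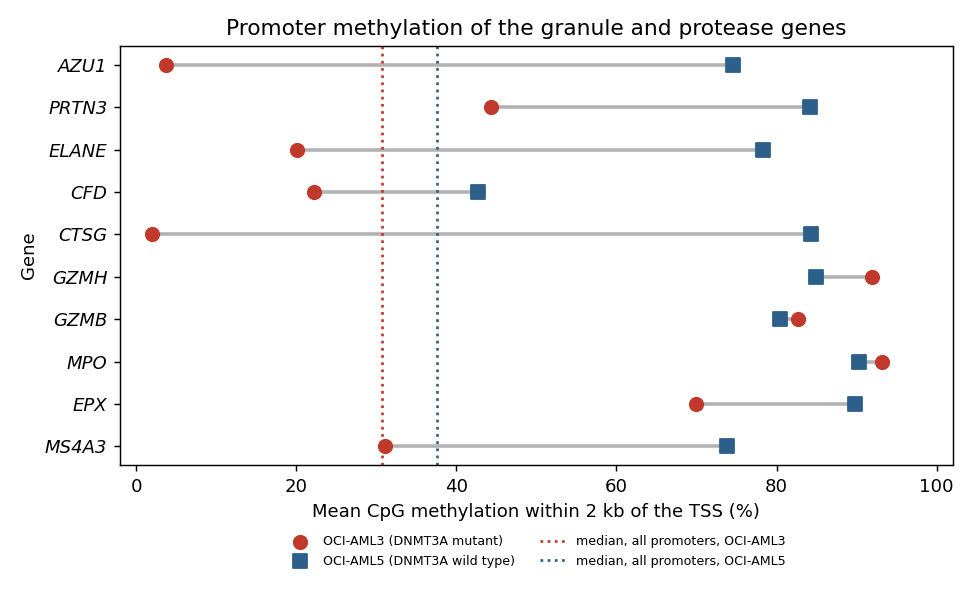
Mean CpG methylation within 2 kb of the TSS (x axis, %) of each of the 10 genes (y axis) in OCI-AML3 (circles) and OCI-AML5 (squares), with dotted lines at the median of all promoters in each line and 1 library per line. CTSG and AZU1 span the widest gaps, from 2.03% to 84.3% and from 3.77% to 74.5%, and the symbols of GZMB and MPO lie close together.

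CTSG encodes cathepsin G, a chymotrypsin-like serine protease of the azurophil granule. Its promoter (14:25043456 to 25047456, minus strand, GRCh37) was at 2.03% ± 4.98 (SD between 52 CpG dinucleotides) in OCI-AML3 and 84.3% ± 24.6 in OCI-AML5. The share of methylated calls was 1.501% (95% Wilson interval 1.03 to 2.17, 1799 calls) and 85.5% (83.8 to 87.0, 1837 calls). By size of the decrease CTSG was 2 of 19930 promoters. Of its 52 CpG dinucleotides, 51 were below 20% in OCI-AML3 and 46 above 66% in OCI-AML5. Most of the 52 lay inside the gene. The 39 in its first 2 kb were at 1.58% and 88.9%, and the 13 in the 2 kb upstream at 3.38% and 70.5%. The 4 within 300 bp of the TSS were at 7.14% and 21.7%, and 3 of them were below 20% in both lines.

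AZU1 encodes azurocidin, a protease relative that lacks enzyme activity and is known for killing bacteria and drawing in monocytes. Its promoter (19:823097 to 827097, plus strand) was at 3.77% ± 9.07 over 125 CpG dinucleotides in OCI-AML3 and 74.5% ± 31.8 in OCI-AML5. With CTSG it was 1 of the 35 promoters, 0.176% of all, that were below 20% in OCI-AML3 and above 66% in OCI-AML5. The most upstream annotated TSS of AZU1 (825097) lies before that of its canonical transcript (827837). Centred on the canonical TSS the levels were 6.97% and 71.3%.

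ELANE encodes neutrophil elastase, whose inherited mutations cause neutropenia. Its promoter (19:849014 to 853014, plus strand) was at 20.1% ± 35.5 over 167 CpG dinucleotides in OCI-AML3 and 78.4% ± 27.8 in OCI-AML5. Centred on the canonical TSS (852303) the level in OCI-AML3 was 5.53% ± 16.02 over 203 CpG dinucleotides, against 78.7% ± 26.3.

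PRTN3 encodes proteinase 3, the main target of the autoantibodies of granulomatosis with polyangiitis. Its promoter (19:838999 to 842999, plus strand) was at 44.3% ± 34.3 over 104 CpG dinucleotides in OCI-AML3 and 84.2% ± 18.9 in OCI-AML5. Of the 104, 38 were below 20% in OCI-AML3. Those within 300 bp of the TSS were at 5.85% and 63.0%, and those from 300 to 2000 bp away at 52.9% and 88.9%.

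CFD encodes complement factor D, the serine protease that starts the alternative pathway of complement. Its promoter (19:857453 to 861453, plus strand) was at 22.2% ± 37.05 over 193 CpG dinucleotides in OCI-AML3 and 42.6% ± 35.8 in OCI-AML5, a difference of -20.5 points, just past the threshold. It was the only member below 66% in OCI-AML5. Its sequence was the richest in CpG of the 10, with an observed over expected ratio of 0.54, where the median of all promoters was 0.50 and CTSG was at 0.25. The difference was uneven. In the 2 kb upstream of the canonical TSS CFD was at 59.1% and 68.0%, and in the first 2 kb of the gene at 3.67% and 31.1%.

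MS4A3 encodes a membrane protein of the tetraspan MS4A family that marks granulocyte and monocyte progenitors. Its promoter (11:59822060 to 59826060, plus strand) was at 31.0% ± 38.3 over 48 CpG dinucleotides in OCI-AML3 and 73.8% ± 29.99 in OCI-AML5. As in CFD the difference was larger after the TSS than before it, with 4.96% and 75.04% in the first 2 kb of the canonical transcript and 51.3% and 72.9% in the 2 kb before it. The 8 CpG dinucleotides within 300 bp of the TSS had no methylated call in OCI-AML3 and a mean of 22.1% in OCI-AML5, so the start of the gene was low in both lines.

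EPX encodes eosinophil peroxidase, which is stored in the granules of eosinophils. Its promoter (17:56268087 to 56272087, plus strand) was at 69.9% ± 32.4 over 65 CpG dinucleotides in OCI-AML3 and 89.8% ± 14.1 in OCI-AML5, a difference of -19.9 points, just short of the threshold. Its 7 CpG dinucleotides within 300 bp of the TSS were at 44.4% and 91.5%.

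MPO encodes myeloperoxidase, the enzyme that makes hypochlorous acid and the classical marker of the myeloid lineage. Its promoter (17:56356296 to 56360296, minus strand) was methylated in both lines, at 93.2% ± 10.3 over 100 CpG dinucleotides in OCI-AML3 and 90.3% ± 17.9 in OCI-AML5. GZMH and GZMB encode granzymes, the proteases that cytotoxic lymphocytes release into target cells. GZMH (14:25076905 to 25080905, minus strand) was at 91.9% ± 6.49 over 28 CpG dinucleotides and 84.9% ± 18.4. GZMB (14:25101473 to 25105473, minus strand) was at 82.7% ± 31.1 over 20 CpG dinucleotides and 80.4% ± 29.5. Together with EPX these genes were the 4 members above 66% in both lines, a state shared by 19.9% of all promoters.

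Single CpG dinucleotides were compared between the 2 libraries by Fisher's exact test with Benjamini-Hochberg adjustment over all nuclear CpG dinucleotides. Of 902 tested in the member promoters, 469 were called lower and 10 higher in OCI-AML3, where the percentages of all CpG dinucleotides were 14.7 and 3.86. CTSG had 48 of 52 called and AZU1 107 of 125, all lower. GZMH had 4 of 28 and MPO 2 of 100, all higher, and GZMB had none of 20. These calls compare 2 libraries, on genes chosen from the same contrast.

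The profile of the chromosome 19 cluster was followed in 500 bp windows with at least 3 CpG dinucleotides. The region from 20 kb before AZU1 to 20 kb after CFD (19:805097 to 887884) was at 54.5% in OCI-AML3 and 79.4% in OCI-AML5. Of its 164 windows, 71 were lower in OCI-AML3 by more than 20 points and 1 was higher by as much, and the percentages of all windows of the genome were 20.1 and 3.55. The lower windows did not form 1 block. They fell into separate stretches, at each gene and also outside the 4 genes. Between AZU1 and PRTN3 the windows from 19:832501 to 834500 were at 18.1% to 49.8% in OCI-AML3 and 56.6% to 88.7% in OCI-AML5. In MED16, beyond CFD, the stretches at 19:869380 to 869880 and 19:872368 to 873349 were at 17.04% and 17.7% in OCI-AML3 and at 40.3% and 69.1% in OCI-AML5. At the far end, in PTBP1 and exon 8 of PLPPR3, 12 stretches from 19:805238 to 812792 were intermediate in OCI-AML3, at 27.1% to 47.8%, and at 87.3% to 96.4% in OCI-AML5. Stretches were chosen as below 50% at every CpG in OCI-AML3, which bounds the first range. The 500 bp windows from 19:805001 to 813000, not chosen by level, were at 36.5% to 63.4% in OCI-AML3 and 92.4% to 96.3% in OCI-AML5.

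**Figure D2:**
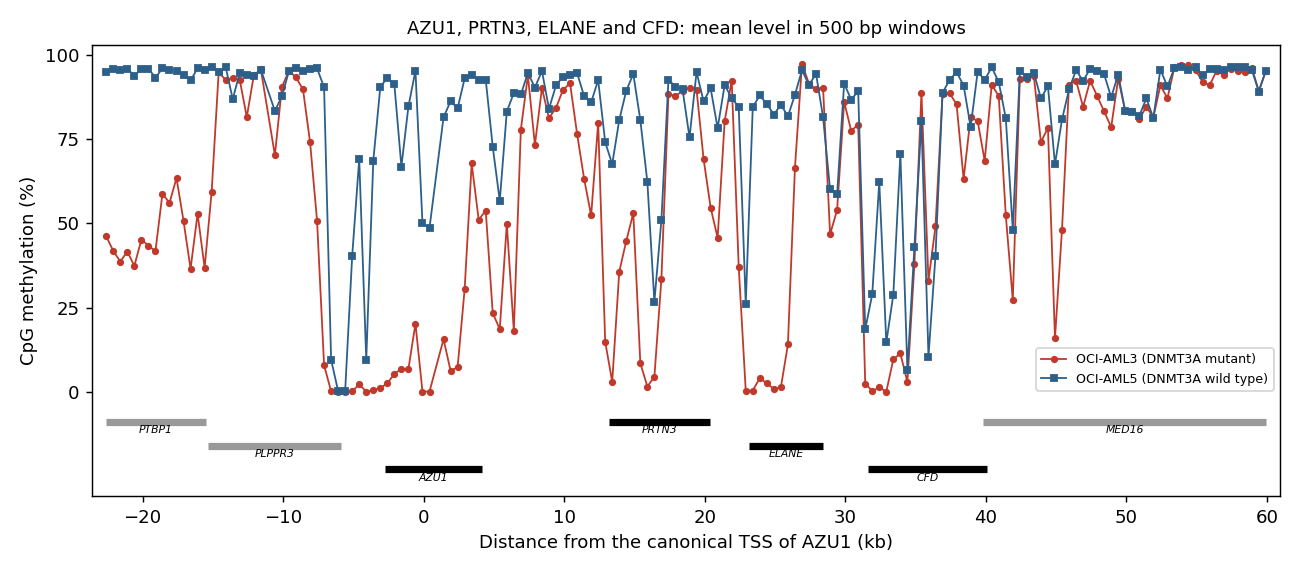
Mean CpG methylation (y axis, %) in 500 bp windows by distance from the canonical TSS of AZU1 (x axis, kb) in OCI-AML3 (circles) and OCI-AML5 (squares), 1 library per line, with bars below for the members (black) and other protein-coding genes (gray). Lines join neighbouring windows, also across gaps. OCI-AML3 dips toward 0% at the start of each of the 4 genes, and OCI-AML5 stays high across most of AZU1 and ELANE.

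Stretches were drawn as runs of at least 5 CpG dinucleotides that were all below 50% in a line. The member loci held 51 such stretches in OCI-AML3, and in 45 of them OCI-AML5 was more than 20 points higher, against 67.7% of all stretches in the genome. Of the 23 stretches low in OCI-AML5, OCI-AML3 was more than 20 points higher in 1, where the genome percentage was 19.6. In all the others OCI-AML3 was lower or within 20 points.

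At ELANE the low stretch of OCI-AML3 ran without a break for 3705 bp (19:850298 to 854002) over exons 1 to 3 and held 195 CpG dinucleotides at 2.55%, against 78.0% in OCI-AML5. At AZU1 it began in the neighbouring gene PLPPR3, covered 6382 bp (19:820622 to 827003) and was at 1.60% and 38.2%. The first 2 exons of PLPPR3 fell in a CpG-dense part of it that was low in both lines, at 0.05% and 0.92% (19:821269 to 822587). The next stretch, 19:827332 to 829329, held exons 1 and 2 of AZU1 at 2.10% and 58.1%. A further one at 19:829413 to 830500, with exon 3, was at 6.50% and 84.4%. The window with the largest decrease of the cluster lay 2337 to 2836 bp before the canonical TSS of AZU1, at 2.48% and 93.2%.

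PRTN3 had shorter stretches. One held exon 1 (19:840577 to 841643) at 6.54% and 69.8%, and another held exons 2 and 3 (19:843167 to 844782) at 6.08% and 51.7%. Between them a run of 5 CpG dinucleotides (19:842006 to 842065) was at 29.0% and 87.5%, and the 3 windows from 19:841501 to 843000 were intermediate in OCI-AML3, at 35.6% to 53.0%, and at 80.7% to 94.3% in OCI-AML5. At CFD the stretch over exons 1 to 3 (19:858846 to 861380) was at 1.20% and 26.4%, the one with exon 4 (19:861476 to 862689) at 9.64% and 44.5%. CFD also held the window with the largest increase of the cluster, 3837 to 4336 bp into the gene, at 33.0% in OCI-AML3 and 10.5% in OCI-AML5.

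In OCI-AML5 short low runs lay at or near some of the same starts. The run at CFD (19:859190 to 859706) was at 9.50%, and the run 1504 to 1767 bp before the canonical TSS of ELANE was at 8.54%. Around the TSS of AZU1 (19:827782 to 827951) OCI-AML5 was at 39.8%. In these runs OCI-AML3 was between 0.10% and 0.51%.

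On chromosome 14, CTSG, GZMH and GZMB lie next to each other in 1 region (14:25022724 to 25123473), which was at 78.7% in OCI-AML3 and 85.0% in OCI-AML5. In OCI-AML3 10 of its 85 windows lay more than 20 points below OCI-AML5 and 6 as far above, which is 11.8% and 7.06% of them beside 20.1% and 3.55% of all windows. A single stretch of 5364 bp (14:25041851 to 25047214) covered all 5 exons of CTSG, from 1758 bp before the TSS to 3605 bp after it, and its 70 CpG dinucleotides were at 3.63% and 85.8%. Its length can be set beside the 95th percentile of all stretches low in OCI-AML3, which was 3634 bp. The window with the largest decrease, 1456 to 1955 bp into CTSG, was at 0.87% and 92.8%, and that with the largest increase, 9045 to 9544 bp before its TSS, at 95.6% and 69.6%. In the 20 kb on either side of CTSG the mean was 85.1% in OCI-AML3 and 82.4% in OCI-AML5. The bodies of GZMH (72.5% and 79.8%) and GZMB (92.2% and 90.8%) were likewise methylated in both lines.

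**Figure D3:**
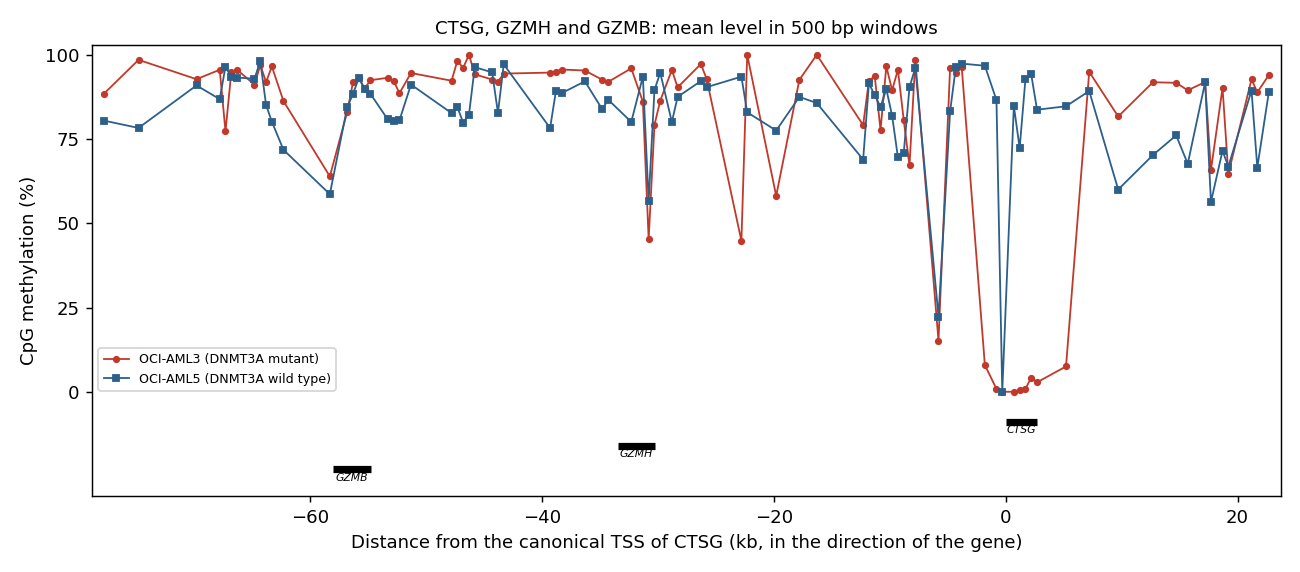
Mean CpG methylation (y axis, %) in 500 bp windows by distance from the TSS of CTSG in the direction of the gene (x axis, kb) in OCI-AML3 (circles) and OCI-AML5 (squares), 1 library per line, with black bars for the members. Lines join neighbouring windows, also across gaps without enough CpG dinucleotides. The wide trough of OCI-AML3 is at CTSG, where OCI-AML5 is low in 1 window before the TSS.

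Around MPO the difference lay outside the promoter. The gene body was at 85.6% in OCI-AML3 and 92.8% in OCI-AML5, but the 20 kb upstream were at 51.8% and 89.9%. There a stretch of 3974 bp (17:56365257 to 56369230), 6961 to 10934 bp before the TSS and in no protein-coding gene, held 52 CpG dinucleotides at 4.83% and 93.7%. The window with the largest decrease of the MPO locus, 7205 to 7704 bp before the TSS, was at 0.19% and 95.2%, and that with the largest increase, 1205 to 1704 bp before it, at 90.5% and 73.9%. Part of the stretch is repeated sequence. Of its 198 tiles of 20 bases, 131 occurred once on chromosome 17, and of the 24 tiles in the window with the largest decrease 14 did. The 19 CpG dinucleotides in tiles found once were at 6.98% and 94.6%. A second stretch (17:56361665 to 56363198), 3369 to 4902 bp before the TSS, was at 7.58% and 56.5%.

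**Figure D4:**
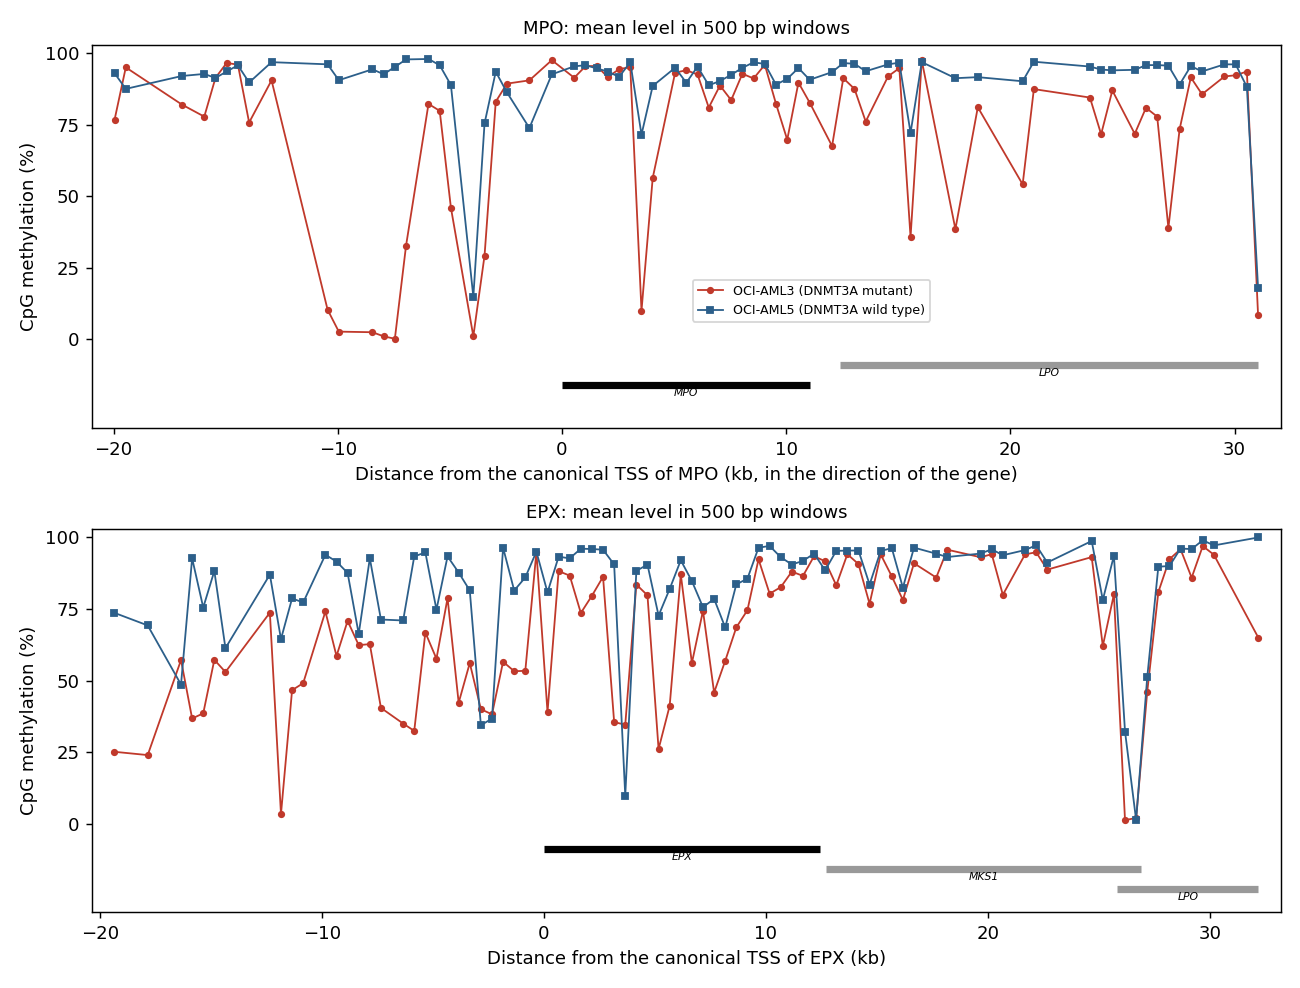
Mean CpG methylation (y axis, %) in 500 bp windows by distance from the TSS in the direction of the gene (x axis, kb) for MPO (top) and EPX (bottom) in OCI-AML3 (circles) and OCI-AML5 (squares), 1 library per line, with bars for the members (black) and other protein-coding genes (gray). OCI-AML3 is near 0% upstream of MPO while both lines are high at its TSS, and at EPX OCI-AML3 is intermediate over many windows.

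At EPX the lower level was spread over many windows. Of the 85 windows of its region (17:56250087 to 56302535), 28 (32.9%, beside 20.1% of all windows) lay more than 20 points below OCI-AML5 and 1 (1.18%, beside 3.55%) as far above, and none was below 20% in OCI-AML3 and above 66% in OCI-AML5. Over all member loci 42 of 459 windows were in that state, where the percentage of the genome was 1.1. The 20 kb upstream of EPX were at 52.1% and 77.9% and its body at 72.6% and 86.0%. The largest decrease of the EPX locus was 11587 to 12086 bp before the TSS, at 3.31% and 64.5%, and the largest increase 3414 to 3913 bp into the gene, at 34.6% and 9.75%. One short run inside EPX around that window (17:56273593 to 56274072) went the other way, at 31.6% in OCI-AML3 and 9.34% in OCI-AML5. It was the 1 stretch of the member loci in which OCI-AML5 was low and OCI-AML3 more than 20 points higher.

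At MS4A3 the low stretch of OCI-AML3 ran for 2844 bp (11:59823401 to 59826244) over exon 1 at 5.60% and 64.2%. The rest of the gene was methylated in both lines, at 82.7% and 88.6%. A second low patch lay past the gene, and its window with the largest decrease (11:59846001 to 59846500) was at 0% and 83.5%, on 3 CpG dinucleotides and 56 and 88 calls. The largest increase of the MS4A3 locus, 18138 to 18637 bp before the canonical TSS, was from 74.2% in OCI-AML5 to 98.3% in OCI-AML3.

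Mean depth was compared between the lines over each whole locus. The ratio of calls per CpG in OCI-AML3 to those in OCI-AML5 was 0.98 in the chromosome 19 cluster, 0.88 in that of chromosome 14, 1.14 at both EPX and MPO and 0.99 at MS4A3. The genome medians were 27 and 30 calls. Single promoters could differ more than whole loci. Calls per CpG in OCI-AML3 and OCI-AML5 were 30.2 and 48.6 in the PRTN3 promoter and 35.8 and 46.5 in that of AZU1. Within 300 bp of the canonical TSS of AZU1 they were 77.9 and 57. They were closer in the promoters of CTSG (34.6 and 35.3), ELANE (47.0 and 50.0) and CFD (47.2 and 46.8). The part of depth in the levels was not tested.

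Genes related to the members were read in the same way, and their counts stand beside 84.6% of all promoters lower, 8.94% lower by more than 20 points and 1.82% higher by more than 20 points in OCI-AML3. Of 5 related proteases, GZMA was lower in OCI-AML3 by more than 20 points (54.5% and 77.1%) and PRSS57, a protease of the same granule, was higher (55.7% and 33.5%). Among related peroxidases, PXDN was higher in OCI-AML3 (80.8% and 43.1%) and LPO was at 35.3% and 43.3%. The LPO window overlaps that of MKS1, and the low stretch in it (17:56295969 to 56296914) holds exons 1 and 2 of MKS1. Among 17 other granule genes 14 were lower, 3 of them by more than 20 points, with the largest decrease at CD177 (44.6% and 75.8%) and the largest increase at MMP9 (72.7% and 40.9%). Of 6 protease inhibitors 2 were lower by more than 20 points, with PI3, which inhibits elastase, at 52.0% and 87.7%, and SERPINB1 had the largest increase (18.4% and 9.68%). Of 7 regulators none was lower by more than 20 points. CEBPE, a factor of late granulocyte maturation, was higher in OCI-AML3 (66.6% and 24.7%), and RUNX1 had the largest decrease (82.3% and 92.9%). For RUNX1 this is the window around the most upstream annotated TSS (21:37376965), and windows around its other starts were not read. None of 7 MS4A relatives differed by more than 20 points, from MS4A14 (52.8% and 68.6%) to MS4A4A (57.4% and 52.4%). The windows of MS4A14 and MS4A7, both among the 7, are almost the same, so they are not separate readings. Of the 7 other genes that overlap the 20 kb windows, none differed by more than 20 points, from PLPPR3 (2.01% and 18.7%) to MS4A2 (92.5% and 90.7%). The PLPPR3 window (19:819955 to 823955) overlaps the promoter window of AZU1, so the 2 share CpG dinucleotides. LPO and MS4A2 were also counted in the lists above.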

How the data were processed

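WGBS was read for 2 AML cell lines, OCI-AML3 and OCI-AML5, with 1 library each. The authors aligned paired-end reads to hg19 with Bismark and Bowtie 0.12.8 (per the labels), and deposited, for each CpG, raw counts of its methylated and its unmethylated calls with both strands added. Whether duplicate reads were removed is not given in the sources used here. On chromosomes 1 to 22 and X each listed position was that of the G of the CpG in GRCh37. This held for a share of 0.75 of the positions on Y and 0.03 on mitochondrial DNA. The column of methylated calls was identified from mitochondrial DNA, where 0.17% and 0.10% of calls fell in it.

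Levels are means over the CpG dinucleotides that both lines covered by more than 5 reads. A promoter reaches 2000 bp to each side of the first TSS of a gene in GENCODE lifted to GRCh37. The gene body is the gene outside its promoter. The flank is the 20 kb on either side outside the gene and its own promoter. In the clusters a flank can therefore hold promoters and bodies of neighbouring members, and the same CpG dinucleotides can count for several members. Wilson 95% intervals and the limit for 0 methylated calls (3 calls) cover counting error only, since calls from 1 read are not independent. SDs are between CpG dinucleotides, not replicates. Fisher's exact test was two-sided at an adjusted p of 0.05. On simulated counts for chromosome 21 at these depths, 144 of 200 implanted decreases of 60 points were recovered, with 2 false calls among 339471 CpG dinucleotides. There the adjustment covered chromosome 21 alone, with only the 200 true differences. In the data 18.5% of CpG dinucleotides were called, so the cutoff of the simulation was stricter. The share recovered therefore does not give the share found in the data.

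The members and lists were chosen with earlier results of these data known, and stretches and the 300 bp zones were added after seeing the data. The text names all members and, of each list, the largest decrease and increase, and of each locus, the windows with the largest decrease and increase. A list gene and a sequence are not reported here. Other genes named were chosen after their values were seen. Statistics were computed in Python 3.11.15 with scipy 1.17.1, numba 0.67.0 and numpy 2.4.6, tables were handled in pandas 2.3.3, and figures were drawn in matplotlib 3.10.9. Alternatives covered the minimum of reads, pooled calls, the promoter window, the TSS, deep CpG dinucleotides, the window size, the adjusted p and the flank.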

Additional observations from a re-analysis of the deposited data

How the results depend on the processing

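The median promoter difference over the 10 genes, -30.2 points, was -40.6 with 1000 bp on either side of the TSS and -21.2 with the 2000 bp upstream alone. The number of windows lower by more than 20 points, 139 of 459 (30.3%), was 83 of 303 (27.4%) with windows of 1000 bp, which are fewer. With pooled calls the median difference was -14.1 in gene bodies, against -11.7, and -17.7 in flanks, against -16.0. Of 70 single promoter values under 7 alternatives, 46 moved by less than the margin of the counting interval, 24 moved by more and 0 reversed. The margin is the mean reach of the interval of the difference to either side. A reversal was counted only where the main difference exceeded 20 points, so GZMH, GZMB, MPO and EPX could not be counted. Their differences kept their sign under every alternative. CFD was at -18.9 without CpG dinucleotides of very high depth and at -8.42 with the upstream window, and ELANE at -19.0 with the upstream window, all short of 20 points. EPX was past 20 points at -20.3 with at least 10 reads, -20.6 with at least 1 read, -20.0 with 1000 bp on either side and -28.9 upstream. The cause was not tested. No paired analysis was possible because each line has 1 library, and no alternative could leave out a library. With 1 library per line the spread between cultures is unknown, and at 27 and 30 calls a single CpG cannot show a small difference.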
